A study of Homo sapiens with 16 samples.

Results

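The genes that license replication origins were examined in 2 established human cell lines of pancreatic ductal adenocarcinoma, MiaPaCa2 and PANC1. The set holds 10 genes named by their role in licensing, namely the 6 subunits of the origin recognition complex (ORC1 to ORC6), the helicase loaders CDC6 and CDT1, the CDT1 inhibitor geminin (GMNN) and the kinase activator DBF4, out of 63501 genes with a deposited FPKM (fragments per kilobase of transcript and sequencing depth). Cells of each line were left as controls (Ctrl) or received for 24 hours 50 µmol/L genistein, a soy isoflavone, 40 nmol/L gemcitabine, a nucleoside analogue that blocks DNA synthesis, or both at these doses (co-treatment). Each of the 8 groups had 2 biological replicates, labelled I and II, which gave 16 poly-A RNA libraries from cultures grown in DMEM with serum. No transgene or deletion is named in the labels of any group, each line is a single culture model without stromal cells, and genistein was dissolved in DMSO whereas gemcitabine was not.

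Before S phase the origin recognition complex binds origins and, together with CDC6 and CDT1, loads the MCM2-7 helicase onto DNA, which licenses the origin to fire once. CDC6 and CDT1 are supplied by E2F-driven transcription and removed by regulated proteolysis, and geminin accumulates from S phase onwards and binds CDT1 so that no origin is licensed again in the same cycle. DBF4 then activates the kinase CDC7, which phosphorylates the loaded helicase. Several of these genes are transcribed most strongly around the transition from G1 to S phase, and messenger RNA from a bulk culture cannot tell a change in the share of cells in that stage apart from a change in the RNA per cell.

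The libraries held between 12943482 and 31991860 counted reads, and a licensing gene was covered by 217 to 6323 reads in a library. Replicates differed by more than sampling noise in all 8 groups, with a chi-square per degree of freedom between 2.74 and 35.3. The epithelial keratins KRT8, KRT18 and KRT19 were detected in all libraries (56.5 to 1076 FPKM), whereas EPCAM stayed at 0.00 and CDH1 at or below 0.0213 FPKM in MiaPaCa2. In PANC1 EPCAM reached 12.8 and CDH1 13.2 FPKM. Of 3 mesenchymal markers, VIM was the highest in either line (1398 to 3875 FPKM). CDH2 stayed at or below 0.0102 FPKM in MiaPaCa2 and was at 8.06 to 13.0 FPKM in PANC1. ZEB1 was at 1.82 to 4.11 FPKM in MiaPaCa2 and 2.23 to 5.15 FPKM in PANC1. The fibroblast, endothelial, acinar and endocrine markers stayed below 0.1 FPKM in summed level, and of the leukocyte markers CD68 alone was above 1 FPKM, at 14.2 to 221 FPKM, with PTPRC and CD3E at or below 0.0236 FPKM.

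The sequences upstream of 5 licensing genes are shown because the transcripts of these genes were higher with gemcitabine in at least 1 line. All 10 genes were matched by symbol to RefSeq starts on GRCh38.p14, and each run gives the 250 bases before the start in the direction of transcription. Capitals mark the E2F letters (TTTCCCGC, TTTCGCGC, TTTGCCGC or TTTGGCGC) and the NF-Y box (CCAAT), searched on both strands.
ORC1, chr1:52404424-52404673, minus strand: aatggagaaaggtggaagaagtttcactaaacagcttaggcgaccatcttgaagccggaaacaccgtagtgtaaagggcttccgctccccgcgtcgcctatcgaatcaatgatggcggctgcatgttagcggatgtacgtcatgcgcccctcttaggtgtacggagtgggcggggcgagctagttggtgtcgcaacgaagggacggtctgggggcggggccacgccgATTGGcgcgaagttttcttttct
ORC6, chr16:46689409-46689658, plus strand: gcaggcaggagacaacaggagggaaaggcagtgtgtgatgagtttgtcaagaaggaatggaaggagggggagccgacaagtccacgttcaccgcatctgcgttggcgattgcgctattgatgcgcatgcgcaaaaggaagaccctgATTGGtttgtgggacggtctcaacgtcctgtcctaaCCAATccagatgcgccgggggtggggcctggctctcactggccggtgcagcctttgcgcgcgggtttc
CDC6, chr17:40287629-40287878, plus strand: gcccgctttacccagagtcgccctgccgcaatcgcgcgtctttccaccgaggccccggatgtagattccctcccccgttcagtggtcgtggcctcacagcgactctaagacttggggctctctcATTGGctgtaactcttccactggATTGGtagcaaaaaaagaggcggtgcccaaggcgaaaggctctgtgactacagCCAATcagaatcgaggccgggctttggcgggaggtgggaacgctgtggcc
CDT1, chr16:88803539-88803788, plus strand: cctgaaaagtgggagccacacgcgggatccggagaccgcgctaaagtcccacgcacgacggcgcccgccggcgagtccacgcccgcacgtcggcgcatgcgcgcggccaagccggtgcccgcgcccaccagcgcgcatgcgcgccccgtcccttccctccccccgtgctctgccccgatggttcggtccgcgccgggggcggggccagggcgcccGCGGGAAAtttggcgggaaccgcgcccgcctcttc
GMNN, chr6:24775163-24775412, plus strand: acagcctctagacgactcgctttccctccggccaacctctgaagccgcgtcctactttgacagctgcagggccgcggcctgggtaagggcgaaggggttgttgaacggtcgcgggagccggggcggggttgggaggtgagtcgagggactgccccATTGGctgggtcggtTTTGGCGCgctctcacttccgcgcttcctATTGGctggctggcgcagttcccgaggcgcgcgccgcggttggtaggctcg
In windows of 300 bases that also take in the first 50 bases after the start, the E2F letters were found at 4 of the 10 genes and in 3.31% of 35116 RefSeq windows of the same length. They lay 35 to 28 bases before the start of CDT1, 80 to 73 before that of GMNN, 12 to 5 before that of ORC3, and at bases 8 to 15 after the start of CDC6, outside the run printed. The windows of ORC1, ORC2, ORC4, ORC5, ORC6 and DBF4 held none of these letters. The NF-Y box occurred 3 times at CDC6, 2 times each at ORC6 and GMNN, and once each at ORC1, ORC2 and ORC3, against 34.6% of all windows with at least 1. Another motif, the CHR element of cell cycle genes (TTTGAA), occurred at DBF4 alone, in a position that spans the start, and in 15.2% of all windows. The windows of the 10 genes have a GC content of 55.3% to 74.3%, and the shares over all windows were not matched for it. E2F sites in other letters than the 4 forms given were not searched. These matches describe letters in a window and no binding was measured.

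**Figure D1:**
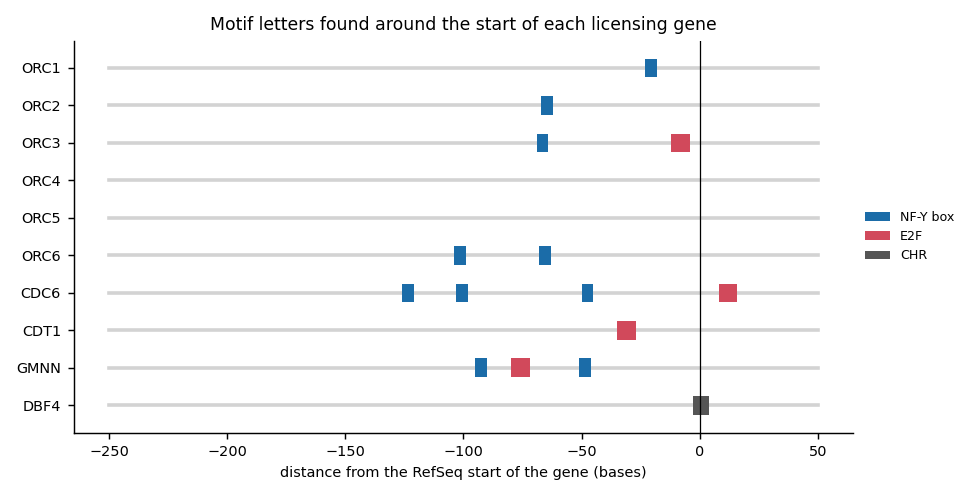
Positions of the E2F letters (red), the NF-Y box (blue) and the CHR letters (grey) around the RefSeq start of each licensing gene, in bases on the horizontal axis. ORC4 and ORC5 hold none of the 3 motifs, and CDC6 holds 3 NF-Y boxes.

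In the control cells CDC6 had the highest mean FPKM of the 10 genes in either line. Levels between genes are compared here per length, in FPKM, which the authors summed over the annotated isoforms of each gene. In MiaPaCa2 CDC6 stood at 65.0 ± 0.505 FPKM (SD, n = 2), followed by ORC6 at 49.5 ± 1.88, GMNN at 41.7 ± 1.35 and ORC2 at 36.7 ± 4.10. ORC4 (32.3 ± 1.66) and CDT1 (31.5 ± 1.18) overlapped in their replicates, as did ORC3 (17.4 ± 1.05) and ORC1 (16.2 ± 0.699). ORC5 lay between these pairs at 22.5 ± 1.18 FPKM, and DBF4 was the lowest at 14.4 ± 0.808. The subunits of the recognition complex, which assemble with each other, spanned 16.2 to 49.5 FPKM. In PANC1 CDC6 reached 47.4 ± 1.55 FPKM (SD, n = 2), but its replicates overlapped those of GMNN (36.3 and 53.3, mean 44.8), and only ORC6 (30.8 ± 0.113) and ORC4 (23.9 ± 8.48) were neighbours in the order without overlap. The PANC1 control replicates also differed in how their counts followed GC content (slopes of 0.292 and -0.0736, in the unit given with the gemcitabine response), and the part of this in the spread of GMNN, CDT1 and ORC4 was not tested.

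**Figure D2:**
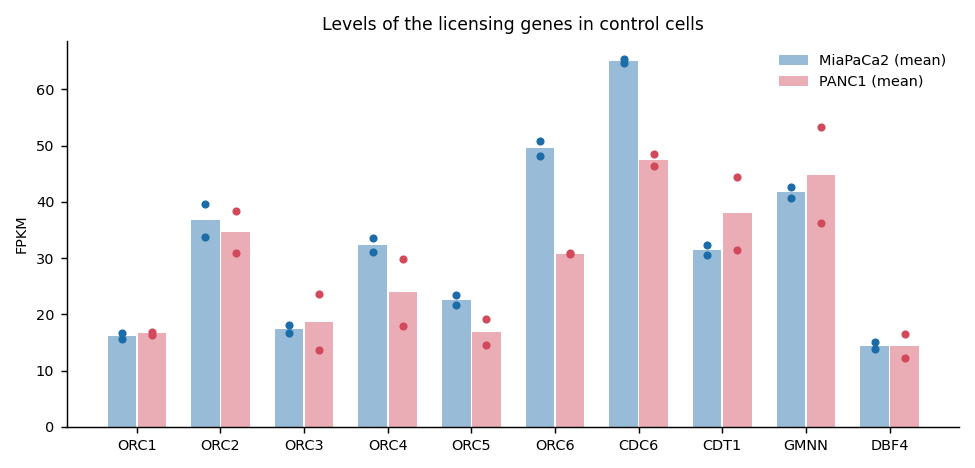
FPKM of each licensing gene in the control libraries of MiaPaCa2 (blue) and PANC1 (red). Bars give the mean and points the 2 replicates. CDC6 has the highest mean in both lines, but in PANC1 its replicates overlap those of GMNN. ORC6 is at 49.5 FPKM in MiaPaCa2 against 30.8 in PANC1.

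Counts were compared between the untreated lines with limma-voom in a model of all 16 libraries. ORC6, the smallest subunit, was 1.62-fold lower in PANC1 (log2 fold change -0.69, standard error 0.11, limma-voom adjusted p = 9.9e-05). ORC4 (-0.63, standard error 0.22, limma-voom adjusted p = 0.0229) and ORC5 (-0.44, standard error 0.14, limma-voom adjusted p = 0.0145) were also called lower, so that 3 of 10 licensing genes were called and none was higher. Of all genes tested, 52.2% were called in this comparison and 24.3% were lower in PANC1, and the median log2 difference was -0.24 for the licensing genes and 0.06 for all genes. Here and below a gene was called where the adjusted p did not exceed 0.05, the log2 fold change reached 0.4 in size and the mean was above 1 FPKM. The ORC4 call ended without MiaPaCa2 control I (adjusted p = 0.0921), MiaPaCa2 control II (0.0569) or PANC1 control I (0.123), all from limma-voom, and the ORC5 call ended without MiaPaCa2 control II (0.0740) or PANC1 control I (0.0552). ORC2 (-0.38) was called lower without MiaPaCa2 control I (-0.43, limma-voom adjusted p = 0.0391) or PANC1 control II (-0.50, 0.00497). ORC1 had a log2 difference of 0.00 (95% interval -0.20 to 0.21). After GC correction ORC4 (-0.50) and ORC6 (-0.56) were called and ORC5 was at -0.31, with 55.2% of all genes called. CDT1 differed by -0.20 (standard error 0.31), and by -0.83 once the trend with GC content was removed (limma-voom adjusted p = 3.1e-05). On log2(FPKM + 1) it differed by 0.24, and its mean in the controls was 38.0 FPKM in PANC1 and 31.5 in MiaPaCa2. The direction of the CDT1 difference thus depended on the unit.

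Gemcitabine acts on cells that synthesize DNA, and its effect on the licensing genes was read against the controls of the same line. In MiaPaCa2 the helicase loaders CDC6 and CDT1 and the subunit ORC6 rose, and ORC2, ORC4, ORC5 and DBF4 fell. In PANC1 CDC6, ORC6, ORC1 and GMNN rose and no licensing gene fell. Thus 7 of 10 genes were called in MiaPaCa2, where 29.6% of all genes tested were called (15% higher and 14.6% lower), and 4 of 10 in PANC1, where 7.52% were called and 4.49% were higher. The falls of ORC4 and ORC5 in MiaPaCa2 were not present after correction for GC content (log2 fold changes of 0.02 and 0.00), and those of ORC2 and DBF4 were then below the fold criterion. The comparisons with control share the control libraries of their line. In CPM, 4 genes lay above both controls and 5 below in MiaPaCa2, beside 40.1% and 34% of all genes, and 5 above and 1 below in PANC1, beside 25.6% and 27.4%. Such a separation was thus common among all genes, and its share with genistein or co-treatment is not given here. Scaling by library size alone moved the all-gene median (log2) from -0.01 to 0.09 in MiaPaCa2 and from 0.03 to 0.14 in PANC1 with gemcitabine, and from 0.01 to 0.17 in PANC1 with co-treatment. Among the genes called with gemcitabine, 2402 were higher and 2345 lower in MiaPaCa2 and 759 and 513 in PANC1, and with library size alone these were 3079 and 1554 in MiaPaCa2 and 1167 and 317 in PANC1. The licensing genes called in MiaPaCa2 were then 4 higher and 2 lower, since ORC1 joined them (0.44, limma-voom adjusted p = 0.00268) and ORC4 (-0.32) and ORC5 (-0.34) dropped out. On log2(FPKM + 1) with limma they were 4 higher and 0 lower, again with ORC1 (0.44). The share of all genes called on that scale is not given here. PANC1 gave 4 higher and 0 lower with library size alone. The medians over the licensing genes were -0.15 in MiaPaCa2 and 0.50 in PANC1 with gemcitabine.

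CDC6, the ATPase that joins the recognition complex to load the helicase, was called in both lines. In MiaPaCa2 its CPM (read counts relative to library sizes scaled with TMM) were 145.0 and 139.0 in controls I and II and 204.8 and 226.6 with gemcitabine. In PANC1 they were 118.3 and 115.1 in the controls and 280.0 and 299.1 with gemcitabine. Both treated libraries lay above both controls in either line. The rise was 1.46-fold in MiaPaCa2 (log2 fold change 0.55, standard error 0.09, limma-voom adjusted p = 4.0e-04) and 2.56-fold in PANC1 (1.36, standard error 0.09, limma-voom adjusted p = 7.0e-04). It remained called in all 11 other analyses of either line, and after GC correction the log2 fold change was 0.70 in MiaPaCa2 and limma-voom adjusted p was 1.7e-05 in PANC1.

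CDT1, which carries the MCM2-7 complex to the origin, had the largest fold of the 10 genes in MiaPaCa2. Its CPM there were 47.2 and 53.5 in controls I and II and 140.1 and 117.3 with gemcitabine, without overlap. The log2 fold change was 0.86 (limma-voom adjusted p = 7.4e-06) after GC correction and 1.30 before it, and CDT1 has the most GC-rich exons of the set (64.3%, at the 95.7th percentile of coding genes). In PANC1 the CPM were 54.9 and 36.1 in the controls and 78.4 and 61.0 with gemcitabine. The treated libraries again lay above the controls, but the log2 fold change of 0.70 (95% interval -0.00 to 1.41) did not pass the test (limma-voom adjusted p = 0.197). After GC correction it was 0.87 (standard error 0.11, limma-voom adjusted p = 8.3e-04).

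Of the recognition complex, ORC6 rose in both lines and ORC1 in PANC1. ORC6 had 58.4 and 59.1 CPM in the MiaPaCa2 controls and 90.2 and 94.3 with gemcitabine, and 37.1 and 35.7 against 57.5 and 67.2 CPM in PANC1. These groups did not overlap, and the log2 fold changes were 0.60 (standard error 0.09, limma-voom adjusted p = 3.8e-04) and 0.82 (standard error 0.14, limma-voom adjusted p = 0.0140). ORC1, the subunit whose protein cycles in human cells, had 65.5 and 58.5 CPM in the PANC1 controls and 97.3 and 96.0 with gemcitabine, a log2 fold change of 0.69 (standard error 0.09, limma-voom adjusted p = 0.00764). In MiaPaCa2 ORC1 changed from 63.1 and 59.6 to 77.5 and 83.3 CPM. Its adjusted p of 0.0139 (limma-voom) passed, but the log2 fold change of 0.33 (standard error 0.09) was under the fold criterion. In PANC1 the calls of ORC1 and ORC6 ended without gemcitabine I (adjusted p = 0.0836 and 0.0711, limma-voom) or gemcitabine II (0.102 and 0.150), with log2 fold changes of at least 0.69 and 0.70.

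ORC2, ORC3, ORC4 and ORC5 form the more constant part of the complex. ORC2 fell in MiaPaCa2 from 62.8 and 63.4 CPM in the controls to 40.7 and 43.7, a log2 fold change of -0.64 (standard error 0.12, limma-voom adjusted p = 0.00116) and of -0.37 after GC correction. ORC4 went from 44.8 and 41.8 to 32.9 and 33.9 CPM (log2 fold change -0.43) and ORC5 from 48.7 and 50.9 to 35.7 and 40.2 CPM (-0.45), both near 0 after GC correction. ORC3 had 40.3 and 35.2 CPM in the controls and 32.0 and 29.9 with gemcitabine, a change of -0.34 that was not called (limma-voom adjusted p = 0.133) and was -0.00 after GC correction. In PANC1 the log2 fold changes of these 4 genes ran from -0.22 for ORC4 to 0.33 for ORC5, with limma-voom adjusted p values of 0.304 to 0.682. Their exons have a GC content of 37% to 41%, at percentiles 4.25 to 19.1 of coding genes. The ORC4 call in MiaPaCa2 ended without gemcitabine I (adjusted p = 0.108), gemcitabine II (0.0697) or control I (0.144), and the ORC5 call without gemcitabine I (0.0754) or control II (0.0501), all from limma-voom.

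GMNN, the inhibitor of CDT1, and DBF4, the kinase activator, complete the set. GMNN had 45.2 and 57.7 CPM in the PANC1 controls and 75.3 and 84.4 with gemcitabine, which gave a log2 fold change of 0.67 (standard error 0.16, limma-voom adjusted p = 0.0408) and of 0.53 after GC correction. This call ended without PANC1 gemcitabine I (adjusted p = 0.149), gemcitabine II (0.277) or control I (0.0970), all from limma-voom. In MiaPaCa2 GMNN had 44.9 and 49.4 CPM in the controls and 48.4 and 51.8 with gemcitabine, and the groups overlapped (log2 fold change 0.04, 95% interval -0.20 to 0.28). DBF4 went from 25.7 and 24.3 to 17.6 and 16.1 CPM in MiaPaCa2, a log2 fold change of -0.62 (standard error 0.14, limma-voom adjusted p = 0.00420) that was -0.26 (0.0518) after GC correction and lost its call without control I (0.0518). In PANC1 its CPM were 21.0 and 26.2 in the controls and 25.4 and 28.0 with gemcitabine, with overlap.

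Counts of MiaPaCa2 libraries followed GC content differently with and without gemcitabine. For each 10 points of exon GC content, log2 CPM relative to the mean of the line had slopes of -0.234 and -0.141 in control MiaPaCa2 cells, 0.145 and 0.0549 with gemcitabine and 0.0453 and 0.289 with co-treatment. With genistein in MiaPaCa2 they were -0.00188 and -0.157, which overlapped the controls. In PANC1 the slopes were 0.292 and -0.0736 in the controls, 0.0497 and -0.131 with gemcitabine and -0.159 and 0.231 with co-treatment, so these differed mostly between replicates. With genistein in PANC1 they were -0.0689 and -0.14. A drug response that follows GC content and a difference between library preparations cannot be told apart in MiaPaCa2, where the slopes moved with gemcitabine and co-treatment. After the correction 3 of 10 licensing genes were called with gemcitabine in MiaPaCa2, all higher (ORC6, CDC6 and CDT1), where 27.5% of genes were called. In PANC1 there were 6 (ORC1, ORC6, CDC6, CDT1 and GMNN higher, ORC4 lower at -0.42), where 18% of genes were called.

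**Figure D3:**
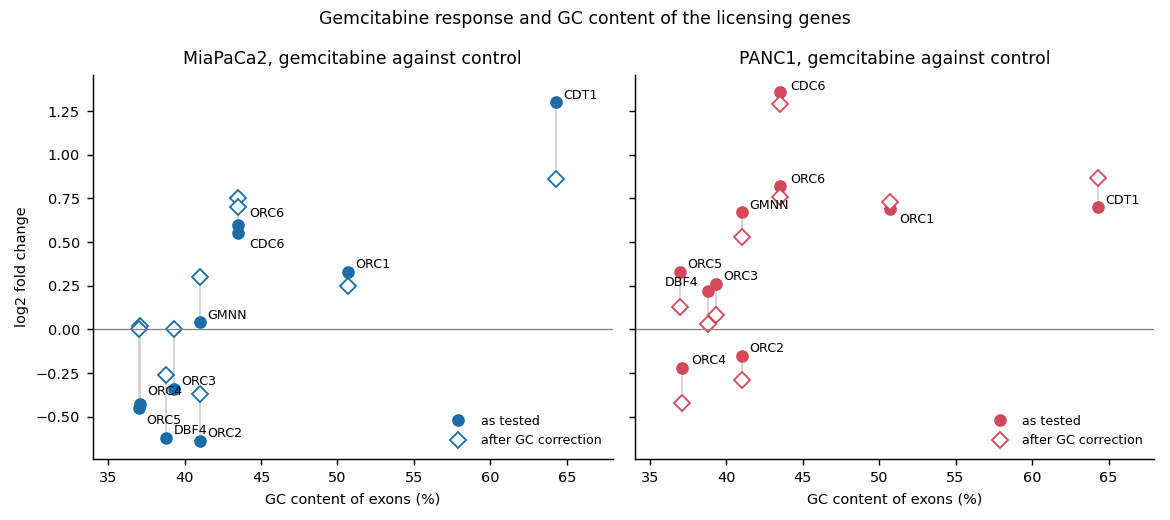
Log2 fold change with gemcitabine of each licensing gene against the GC content of its exons in percent, for MiaPaCa2 (left) and PANC1 (right), as tested (filled circles) and after GC correction (open diamonds). In MiaPaCa2 the correction takes ORC4 and ORC5 to 0.02 and 0.00 and CDT1 from 1.30 to 0.86, and it leaves CDC6 and ORC6 at 0.70 and 0.75.

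**Figure D4:**
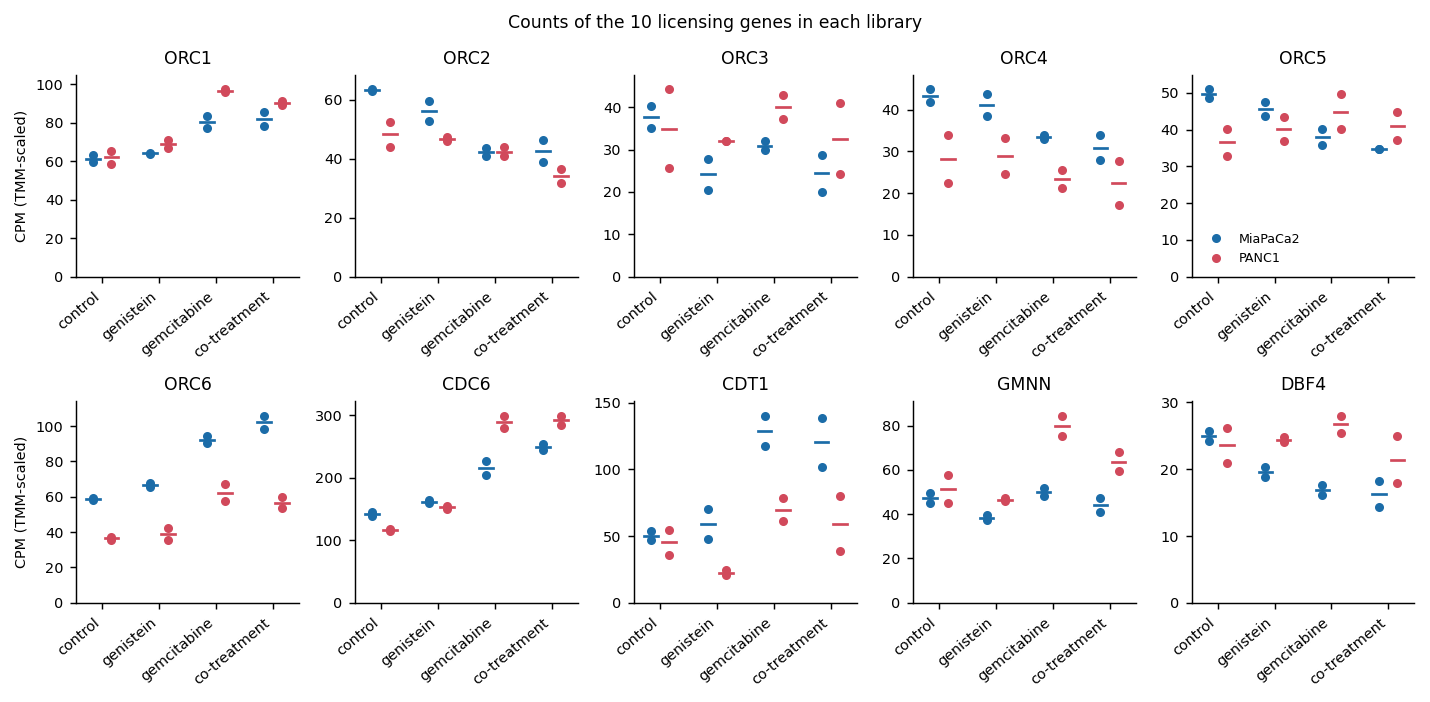
CPM of the 10 licensing genes in each of the 16 libraries, by treatment, with MiaPaCa2 in blue and PANC1 in red. Points are replicates and short lines group means. Both gemcitabine and both co-treatment libraries lie above both controls for CDC6, ORC6 and ORC1 in either line. With gemcitabine 40.1% of all genes tested in MiaPaCa2 and 25.6% in PANC1 also lay above both controls. The share of all genes with co-treatment is not given here.

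With genistein alone 1 licensing gene was called in MiaPaCa2 and none in PANC1. In MiaPaCa2 this was ORC3, which binds ORC2 within the complex, with 40.3 and 35.2 CPM in the controls and 20.5 and 27.8 with genistein, a log2 fold change of -0.65 (standard error 0.18, limma-voom adjusted p = 0.0347) and of -0.48 after GC correction (0.0134). This was 1 of 10 genes against 8.31% of all genes tested and 4.13% called lower. The call ended without genistein I (adjusted p = 0.219), control I (0.250) or control II (0.0976), all from limma-voom. In PANC1 limma-voom called 0 of 10 licensing genes, beside 0.0591% of all genes. There edgeR called 0 and DESeq2 called 1, CDT1, and the shares of all genes called by these 2 tools are not given here. At an unadjusted p below 0.05 there were 2 licensing genes, CDC6 and CDT1, and 19.2% of all genes. CDT1 had 54.9 and 36.1 CPM in the PANC1 controls and 24.4 and 20.8 with genistein, without overlap, and its log2 fold change of -0.92 had a 95% interval of -1.75 to -0.08 (limma-voom adjusted p = 0.229). After GC correction it was -0.33. CDC6 had 150.7 and 154.8 CPM with genistein in PANC1, above both controls, with a log2 fold change of 0.43 (95% interval 0.21 to 0.65, limma-voom adjusted p = 0.119). In MiaPaCa2 CDC6 had 159.2 and 163.8 CPM (0.17, 95% interval -0.02 to 0.36), whereas its FPKM of 55.8 and 61.4 were below the control values of 65.4 and 64.7, so the direction there depended on the unit.

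**Figure D5:**
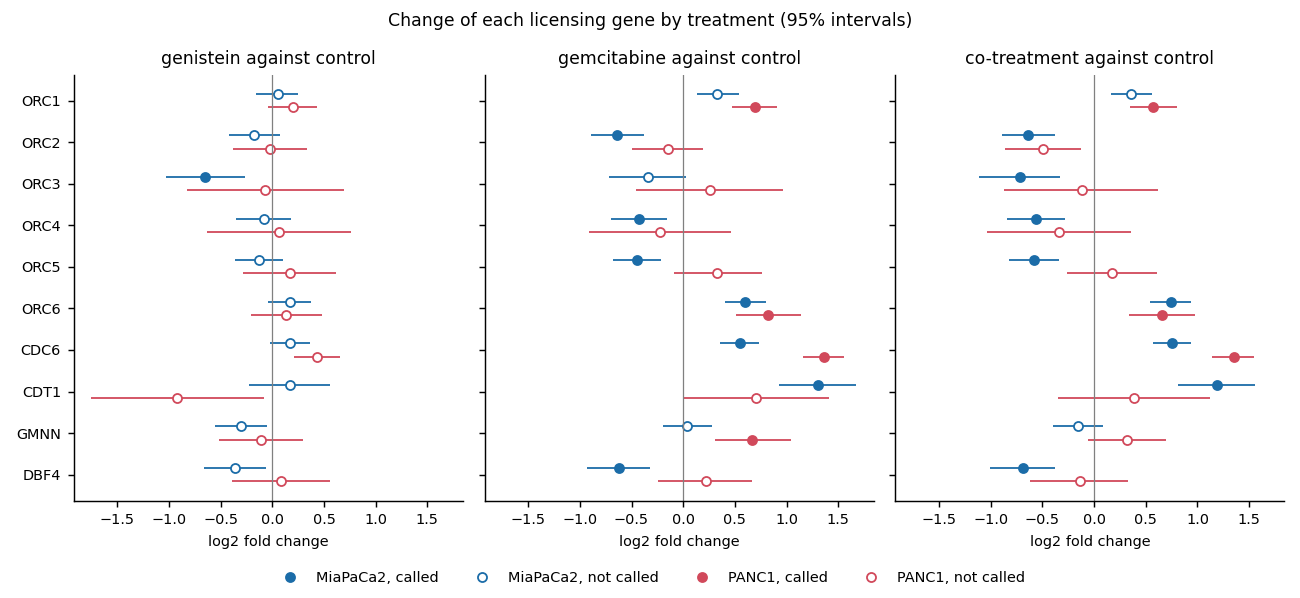
Log2 fold change of each licensing gene against control with its 95% interval from limma-voom, for genistein, gemcitabine and co-treatment, with MiaPaCa2 in blue and PANC1 in red. Filled points were called. CDC6 and ORC6 are called in both lines with gemcitabine and with co-treatment, and the falls of ORC4 and ORC5 in MiaPaCa2 turned to values of 0.00 to 0.10 after GC correction.

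Co-treatment was compared with control and then directly with each drug alone. In MiaPaCa2 8 of 10 genes were called against control, where 40.5% of all genes were called, with CDT1, CDC6 and ORC6 higher (20.3% of all genes) and ORC2, ORC3, ORC4, ORC5 and DBF4 lower (20.2%). CDC6 stood at 253.9 and 244.6 CPM (log2 fold change 0.75, standard error 0.09, limma-voom adjusted p = 1.6e-05), ORC6 at 105.8 and 98.6 CPM (0.74) and CDT1 at 101.7 and 138.5 CPM (1.19). None of these overlapped the controls, a separation for which the share of all genes with co-treatment is not given here. The 5 falls ran from -0.56 for ORC4 to -0.72 for ORC3, and after GC correction, with 39.3% of genes called, none of them was called and ORC4 and ORC5 were at 0.10 and 0.08. GMNN had 47.2 and 41.0 CPM against 44.9 and 49.4 in the controls (-0.16, limma-voom adjusted p = 0.269). The ORC3 call ended without co-treatment II (adjusted p = 0.0517) or control I (0.0543), both from limma-voom, and that of ORC4 without co-treatment II, where the log2 fold change was -0.38. ORC1 (0.36) met the fold criterion at 0.40 without co-treatment I or control I.

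In PANC1 co-treatment raised CDC6 to 299.4 and 285.2 CPM (log2 fold change 1.35, standard error 0.09, limma-voom adjusted p = 2.6e-04), ORC1 to 89.3 and 91.5 CPM (0.57, standard error 0.10, 0.00651) and ORC6 to 59.7 and 53.7 CPM (0.66, standard error 0.14, 0.0154). These were 3 of 10 licensing genes, against 17.1% of all genes called and 10.2% called higher. With library size alone they were again 3 higher and 0 lower, while the split of all genes went from 1730 higher and 1167 lower to 2686 and 677. The ORC6 call ended without co-treatment I (limma-voom adjusted p = 0.0699). CDT1 had 38.6 and 79.9 CPM with co-treatment and overlapped the controls, and changed by 0.39 on the log2 scale (standard error 0.32), 0.88 without co-treatment I and 0.54 after GC correction, both then called (limma-voom adjusted p = 0.0470 and 0.00541). ORC2, at 36.5 and 31.6 CPM below both controls, had a log2 fold change of -0.49 (limma-voom adjusted p = 0.0607), and of -0.54 (8.0e-04) after GC correction and -0.67 (0.0178) without control I. With GC correction 5 licensing genes were called here, beside 29.2% of all genes. GMNN was at 67.9 and 59.6 CPM, above both controls, without passing (0.32, limma-voom adjusted p = 0.217).

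Against gemcitabine alone, 0 of 10 licensing genes were called with co-treatment in either line by limma-voom, edgeR and DESeq2, where limma-voom called 5.88% of all genes in MiaPaCa2 and 0.0177% in PANC1. At an unadjusted p below 0.05 there was 1 gene in MiaPaCa2, CDC6 (log2 fold change 0.20, 95% interval 0.02 to 0.38), and there were 0 in PANC1, where CDC6 differed by -0.01 (95% interval -0.20 to 0.18). The same criterion held for 23.7% of all genes in MiaPaCa2 and 13.4% in PANC1. The intervals for CDT1, -0.45 to 0.22 in MiaPaCa2 and -1.04 to 0.41 in PANC1, allow for sizeable differences. In MiaPaCa2 ORC3 was lower at -0.65 (limma-voom adjusted p = 0.0198) without co-treatment I and at -0.38 (0.230) with it. Against genistein alone, co-treatment raised CDT1 by 1.02, CDC6 by 0.58 and ORC6 by 0.57 and lowered ORC2 (-0.46), ORC4 (-0.48) and ORC5 (-0.45) in MiaPaCa2 on the log2 scale, 6 of 10 genes against 31.5% of all genes (16.6% higher, 14.9% lower), and after GC correction the 3 rises were called and the 3 falls were not, with 31% of genes called. With library size alone 4 were higher, ORC1 (0.42) among them, and 0 lower, and the split of all genes called went from 2668 higher and 2400 lower to 3331 and 1615. On log2(FPKM + 1) the licensing genes called were likewise 4 higher and 0 lower, and the share of all genes on that scale is not given here. The falls also ended without genistein II (limma-voom adjusted p = 0.107, 0.123 and 0.0814 for ORC2, ORC4 and ORC5), and those of ORC2 and ORC4 without co-treatment II (0.0759 and 0.0959). DBF4, not called with all libraries (-0.33), was at -0.53 (0.0123, limma-voom) without co-treatment I. In PANC1 limma-voom called CDC6 alone (0.92, standard error 0.09, adjusted p = 0.00289) against 8.18% of all genes and 3.87% called higher, and this call ended without genistein I (0.0811) or genistein II (0.0801). With library size alone ORC1, ORC6 and CDT1 were called higher as well, and the split of all genes went from 655 higher and 728 lower to 1150 and 318. CDT1 in PANC1 was at 1.30 (standard error 0.37, limma-voom adjusted p = 0.0651), and was at 1.80 (0.0122) without co-treatment I. With GC correction 5 genes were called there, beside 21% of all genes, ORC1, ORC6, CDC6, CDT1 and GMNN.

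The interaction term asks whether the effect of both drugs differs from the sum of their separate log2 effects. For the licensing genes limma-voom, edgeR and DESeq2 gave 0 of 10 in each line, and with limma-voom 0.0249% of all genes in MiaPaCa2 and 0% in PANC1 had an adjusted p of at most 0.05. At an unadjusted p below 0.05 there were 0 licensing genes in MiaPaCa2, beside 8.38% of all genes, and 1 in PANC1, beside 4.92%. The 1 gene was CDC6 in PANC1 at -0.44 (95% interval -0.73 to -0.14, limma-voom adjusted p = 0.734). In MiaPaCa2 the interaction of CDC6 was 0.03 (95% interval -0.23 to 0.29) and that of CDT1 -0.28 (-0.80 to 0.24).

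Whether a response differed between the lines was tested in the model of all 16 libraries and judged by the adjusted p. For gemcitabine CDC6, ORC5 and DBF4 had a more positive response in PANC1, by 0.71 (standard error 0.11, limma-voom adjusted p = 0.00161), 0.68 (standard error 0.20, 0.0387) and 0.74 (standard error 0.23, 0.0489) on the log2 scale, 3 of 10 genes against 15.3% of all genes and 6.21% in this direction. edgeR gave 2 genes, with DBF4 at an adjusted p of 0.0510, and DESeq2 gave 4, and their shares of all genes are not given here. The DBF4 difference passed in 2 of 9 other analyses. After GC correction CDC6 stayed at 0.55 (limma-voom adjusted p = 0.00175), whereas ORC5 was at 0.10 and DBF4 at 0.25 (0.701 and 0.147), and ORC1 (0.40, 0.00496) and ORC4 (-0.47, 0.0250) passed, 3 genes beside 26.3% of all genes. CDC6 also passed with each of the 8 control and gemcitabine libraries left out in turn (limma-voom adjusted p = 0.00201 to 0.0136). The ORC5 difference passed in 2 of these 8 analyses and the DBF4 difference in 1, with adjusted p up to 0.163 and 0.162 (limma-voom), while ORC2 (0.50, 0.0415) and GMNN (0.71, 0.00845) passed without PANC1 control II. For CDT1 the difference of -0.69 had a 95% interval of -1.59 to 0.20.

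For co-treatment CDC6 (0.52, standard error 0.11, limma-voom adjusted p = 0.00692) and ORC5 (0.67, standard error 0.21, 0.0389) responded more positively in PANC1, 2 of 10 genes against 18.1% of all genes and 7.38% in this direction. With library size alone there were again 2 licensing genes, while the split of all genes went from 1319 higher and 1920 lower in PANC1 to 1824 and 1397. After GC correction CDC6 was at 0.38 (limma-voom adjusted p = 0.0143) and ORC5 at 0.15 (0.542), and ORC1 passed at 0.25 (0.0463), beside 30.2% of all genes. With 1 library left out at a time the ORC5 difference passed in 2 of 8 analyses (limma-voom adjusted p up to 0.117), and CDT1 (-1.45, 0.0156) and DBF4 (0.68, 0.0444) passed without PANC1 co-treatment II and GMNN (0.57, 0.0250) without PANC1 control II. For genistein limma-voom, edgeR and DESeq2 found 0 of 10 genes, and limma-voom called 0.0336% of all genes. At an unadjusted p below 0.05 there was 1 licensing gene, beside 11.5% of all genes, namely CDT1 at -1.13 (95% interval -2.15 to -0.12, limma-voom adjusted p = 0.389).

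The genes that follow licensing were taken as lists of known members. The helicase list holds MCM2 to MCM7, the subunits that are loaded, and the MCM binding protein MCMBP. With gemcitabine 1 of these 7 genes was called higher in MiaPaCa2, MCM2 at 0.54 (standard error 0.10, limma-voom adjusted p = 8.8e-04) and 0.37, not called, after GC correction, and 3 in PANC1, where MCM4 changed most at 0.88 (standard error 0.08, 0.00190). The medians were -0.05 and 0.37, beside -0.01 and 0.03 for all genes, of which 29.6% were called in MiaPaCa2 and 7.52% in PANC1 with gemcitabine. After GC correction 0 of the 7 were called in MiaPaCa2 and 4 in PANC1, all higher, beside 27.5% and 18% of all genes. The 13 factors of helicase activation include CDC7, the kinase that DBF4 activates, CDC45 and the GINS subunits. Of these, gemcitabine raised 3 and lowered 1 in MiaPaCa2 (median 0.21) and raised 6 in PANC1 (median 0.70), where GINS3 changed most (1.26, standard error 0.12, limma-voom adjusted p = 0.00246). After GC correction 4 were higher in MiaPaCa2 and 10 in PANC1, with 0 lower, and the medians were 0.22 and 0.66. CDC7 was the list member with the smallest value in MiaPaCa2, at -0.47 with gemcitabine (limma-voom adjusted p = 0.0448, not called after GC correction) and -1.22 with co-treatment (1.8e-04), and its gemcitabine response was 1.18 higher in PANC1 (0.0256). DBF4 and its partner CDC7 were both called lower in MiaPaCa2 with gemcitabine and with co-treatment before GC correction, and after it CDC7 alone was called, with co-treatment (-0.88).

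Degradation factors and cyclin kinases were the third list. Of its 13 genes gemcitabine raised 4 and lowered 3 in MiaPaCa2 and raised 4 in PANC1, with medians of 0.07 and 0.18, beside the same shares and medians of all genes as above. After GC correction 6 were higher and 1 lower in MiaPaCa2 (median 0.28), and 4 were higher and 2 lower in PANC1 (median 0.09). CCNE2, a cyclin of the G1 to S transition, changed most in either line, with a limma-voom adjusted p of 0.00520 in MiaPaCa2, where it was at 1.32 after GC correction, and with 2.09 (standard error 0.37, 0.0173) in PANC1. With co-treatment the largest changes were those of CCNE1 in MiaPaCa2 (0.96) and in PANC1 of DTL (1.40, standard error 0.12, limma-voom adjusted p = 7.4e-04), the receptor of the ubiquitin ligase that marks CDT1 for degradation. The DTL response was higher in PANC1 than in MiaPaCa2 by 1.09 with gemcitabine (limma-voom adjusted p = 3.6e-04). SKP2, another ubiquitin ligase subunit that binds CDT1, was the lowest of the list in control PANC1 relative to MiaPaCa2 (-1.21, 2.4e-07). Among the recognition partners, LRWD1, which binds the complex on chromatin, rose in MiaPaCa2 by 1.22 with gemcitabine (limma-voom adjusted p = 3.6e-04) and 0.85 after GC correction, and differed by 0.03 (standard error 0.26) in PANC1. The geminin relative MCIDAS was tested and not called with any treatment, and GMNC was removed by the filter on low counts.

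For context, 12 mitosis genes were counted in the same way. Gemcitabine lowered 10 of them in MiaPaCa2 (median -0.75) and 4 in PANC1 (median -0.39), and co-treatment lowered 9 and 8, with 0 higher in any of these comparisons by limma-voom. CENPE in MiaPaCa2 with co-treatment, at -3.36 (limma-voom adjusted p = 3.5e-06), was not counted because its treated mean was not above 1 FPKM. Of all genes, 14.6% were called lower in MiaPaCa2 with gemcitabine and 20.2% with co-treatment. In PANC1 513 and 1167 of 16909 genes were called lower, and 7.52% and 17.1% were called in either direction. After GC correction gemcitabine lowered 7 of the 12 in each line (medians -0.68 and -0.48), and co-treatment 7 in MiaPaCa2 and 10 in PANC1. Of all genes, 1989 of 15757 were then lower with gemcitabine in MiaPaCa2 and 2994 with co-treatment. In PANC1 these were 1066 and 2083 of 16563. The smallest values with gemcitabine were those of the kinesin CENPE in MiaPaCa2 (-2.29) and of the kinase PLK1 in PANC1 (-1.22, limma-voom adjusted p = 0.00548). The share of cells in each phase of the cycle was not measured in these libraries, and its part in the values of the licensing genes was not tested.

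Over the 16 libraries, with log2 CPM centred within each line, the transcripts of ORC1, ORC6 and CDC6 followed each other, with Pearson coefficients of 0.943 for ORC1 and ORC6, 0.972 for ORC1 and CDC6 and 0.942 for ORC6 and CDC6. The points share libraries and treatment groups, so these coefficients are descriptions. ORC2, ORC4, ORC5 and DBF4 gave coefficients of 0.655 to 0.848 among themselves, and ORC2 against ORC1 gave -0.696. ORC3 gave 0.534 with ORC2 and 0.814 with DBF4. All coefficients here were taken without GC correction, and the exons of ORC2, ORC3, ORC4, ORC5 and DBF4 have a GC content of 37% to 41%. The part of GC content in the coefficients was not tested. Among 15095 genes tested in both lines, the 3 most like ORC1 were CDC25A (0.977), CDC6 (0.972) and E2F2 (0.972), and those most like CDC6 were ATF3 (0.983), CDC45 (0.973) and ORC1 (0.972). CDT1 was most like KIF26A (0.987), JUNB (0.984) and TICAM1 (0.982), and GMNN most like RAD51AP1 (0.959), SMAD9 (0.952) and FRG1 (0.95). CDT1 and GMNN, the loader and its inhibitor, gave 0.428 with each other. The ratio of CDT1 to GMNN in FPKM was 0.753 and 0.758 in the MiaPaCa2 controls, 1.31 and 0.891 with genistein, 2.61 and 1.60 with gemcitabine and 1.69 and 2.55 with co-treatment. In PANC1 it was 1.23 and 0.590 in the controls, 0.423 and 0.284 with genistein, 0.941 and 0.612 with gemcitabine and 0.489 and 1.33 with co-treatment. Each treatment was above the controls without overlap in MiaPaCa2, and in PANC1 genistein was below them while the other treatments overlapped. The exons of CDT1 and GMNN differ in GC content (64.3% and 41%), and GC correction moved the log2 change of CDT1 less that of GMNN. With gemcitabine in MiaPaCa2 this difference went from 1.26 to 0.55, with co-treatment there from 1.34 to 0.56, and with genistein in PANC1 from -0.81 to -0.09. The part of GC content in the ratios was not tested.

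The genes and the isoforms behind their FPKM are as follows, on GRCh37. ORC1 (ENSG00000085840) lies on chromosome 1 from 52838501 to 52870095, ORC2 (ENSG00000115942) on chromosome 2 from 201773700 to 201828403 and ORC3 (ENSG00000135336) on chromosome 6 from 88299785 to 88377171. ORC4 (ENSG00000115947) lies on chromosome 2 from 148687965 to 148779173, ORC5 (ENSG00000164815) on chromosome 7 from 103766788 to 103848495 and ORC6 (ENSG00000091651) on chromosome 16 from 46723555 to 46732306. CDC6 (ENSG00000094804) lies on chromosome 17 from 38444131 to 38460909, CDT1 (ENSG00000167513) on chromosome 16 from 88870197 to 88875666, GMNN (ENSG00000112312) on chromosome 6 from 24775159 to 24786327 and DBF4 (ENSG00000006634) on chromosome 7 from 87505531 to 87538868. Exons of ORC2 (4.39% of their length), ORC4 (4.83% with ACVR2A and 1.76% with MBD5) and DBF4 (3.16% with SLC25A40) overlap genes on the opposite strand, and since the strand setting of the counting is not given in the sources used here, reads of such stretches may belong to either gene. ORC1 has 1 and DBF4 has 3 annotated processed pseudogenes, and reads that align to both were removed by the authors.

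Isoform FPKM were estimated from single short reads and are uncertain where isoforms share most exons. A single isoform, ENST00000297431, carried a median of 95.7% of the ORC5 FPKM over the 16 libraries. The leading isoform of CDC6, ENST00000209728, carried a median of 58.4%, that of CDT1, ENST00000569140, 50.7%, that of ORC1, ENST00000371566, 52.9%, that of GMNN, ENST00000356509, 41.0%, that of ORC3, ENST00000257789, 46.7%, and that of ORC6, ENST00000219097, 37.4%, all annotated as coding. The leading isoform of ORC2, ENST00000474877 (44.8%), has no defined coding sequence in GENCODE release 44, and that of ORC4, ENST00000542387 (33.8%), was not found in that release. For DBF4 the leading isoform was ENST00000431138, annotated as a target of nonsense-mediated decay, with a median of 63.6% (57.2% to 72.5%), and its coding isoform had a median of 1.43%. The isoforms annotated as coding in GENCODE release 44 had medians of 34.6% for ORC2 and 11.5% for ORC4. Isoforms not found in that release, such as the leading one of ORC4, were not counted as coding. The coding shares of ORC2, ORC4 and DBF4 may therefore be too low. The counts used in the tests take all reads of the exons of a gene.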

How the data were processed

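Poly-A RNA of 16 cultures was read as single 50 bp reads. Per the labels and the study's methods, the authors aligned reads to GRCh37 with TopHat2 2.0.4, removed multiply aligned reads with Picard 1.29, counted reads per gene with HTSeq 0.6.1 (deposited raw counts) and estimated FPKM with Cufflinks 2.1.1 (deposited gene and isoform FPKM). The gene annotation release and the strand setting are not given in the sources used here. Samples were grouped by line and treatment from their labels.

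Differences in counts were assessed by limma-voom, using limma 3.58.1 in R 4.3.3, after TMM scaling and removal of low counts, which left 16064 genes in MiaPaCa2 and 16909 in PANC1. Models held the 8 libraries of a line, or all 16 for comparisons between lines, and p-values were adjusted over all genes tested (Benjamini-Hochberg, two-sided). A gene was called where the adjusted p did not exceed 0.05, the log2 fold change reached 0.4 in size and the mean of the treated group (of 1 of the lines, between lines) was above 1 FPKM, and interaction and response differences were judged on the adjusted p alone. In the GC correction the loess trend (span 0.3) of each library's log2 CPM with exon GC content was removed; GC content from GENCODE 44 was known for 98.1% and 98% of the genes. Where 1 of 2 replicates was left out, the lone sample was assumed to vary like the other groups. Alternatives were edgeR 4.0.16, DESeq2 1.42.0, other scalings and filters, limma-trend on log2(FPKM + 1), other sets of libraries and a replicate block. The scripts were tested on simulated counts.

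All 10 genes and the isoform of each with the highest mean FPKM are described, genes of the fixed lists are named where they had the largest or smallest change, and for ORC1, CDC6, CDT1 and GMNN the 3 genes with the highest correlation are named. The members and lists were chosen with earlier results of these data known. The replicates are labelled biological, with no word on separate cultures, so p-values measure the spread between these samples.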

Additional observations from a re-analysis of the deposited data

Results flagged for a closer look

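By the test of the difference between lines, 3 of 10 licensing genes passed for gemcitabine, beside 15.3% of all genes (6.21% higher in PANC1). For co-treatment 2 of 10 passed, beside 18.1% of all genes (7.38% higher in PANC1). With gemcitabine the log2 response in PANC1 minus that in MiaPaCa2 was 0.71 for CDC6, 0.68 for ORC5 and 0.74 for DBF4 (limma-voom adjusted p = 0.00161, 0.0387 and 0.0489). With co-treatment it was 0.52 for CDC6 and 0.67 for ORC5 (limma-voom adjusted p = 0.00692 and 0.0389). CDC6 passed in 9 of 9 other analyses of either response. ORC5 passed in 5 of 9 for gemcitabine and 6 of 9 for co-treatment, and DBF4 in 2 of 9 for gemcitabine. After GC correction the ORC5 values were 0.10 and 0.15 and that of DBF4 was 0.25, none of which passed, and the part of GC content in them was not tested.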

How the results depend on the processing

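Of 2500 values of licensing genes recomputed under other settings, 2315 kept their side of the threshold without a called value turning (179 uncalled ones changed sign), 62 gained a call, 9 turned with a call before or after and the others lost a call. The turned values, with and without a replicate block unless stated, were those of ORC4 in MiaPaCa2 with gemcitabine (0.02) and co-treatment (0.10), of ORC5 there with gemcitabine (0.00, GC correction without the block) and co-treatment (0.08), and of the ORC4 gemcitabine response between lines (-0.47), all under GC correction. GC correction, with or without the block, gave 3 called genes in MiaPaCa2 with gemcitabine, with co-treatment and for co-treatment against genistein, and 5 in PANC1 with co-treatment and for co-treatment against genistein. With the block it gave 1 for the co-treatment response between lines. On log2(FPKM + 1) there were 4 with gemcitabine and 0 with genistein in MiaPaCa2, 4 in PANC1 for co-treatment against genistein and 1 for the gemcitabine response. Genistein in MiaPaCa2 gave 0 with all 16 libraries in the model. DESeq2 gave 1 with genistein in PANC1. Co-treatment against genistein in PANC1 gave 2 with edgeR, 3 with DESeq2, 4 with library size alone and 5 with all 16 libraries. PANC1 co-treatment gave 1 with only the 4 libraries compared, and both response differences gave 1 without the filter on low counts. For most of these settings the share of all genes called is not given here, and it moved as well. For co-treatment against genistein in PANC1 limma-voom called 1383 of 16909 genes as tested and 1468 with library size alone. After GC correction it called 3480 of 16563 there. The licensing counts here and below therefore cannot be told apart from changes in the share of all genes, and the cause was not tested.

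With 1 library left out, the number called ranged from 0 to 1 for genistein and for co-treatment against gemcitabine in MiaPaCa2, from 3 to 7 for co-treatment against genistein there, from 1 to 4 with gemcitabine and from 0 to 2 for co-treatment against genistein in PANC1, from 1 to 4 between the control lines, and from 1 to 5 and 1 to 4 for the gemcitabine and co-treatment responses.

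Whether the replicate numbers pair the samples was not settled. Deviations of same-numbered samples correlated at -0.299 to 0.155 in MiaPaCa2 and -0.569 to 0.331 in PANC1. The signs were mixed, and replicates also differed in their trend with GC content, so these coefficients cannot decide the question. The replicate block alone ended 3 calls and added 0, namely ORC3 with genistein in MiaPaCa2 (limma-voom adjusted p = 0.0559, which left 0 called there), GMNN with gemcitabine in PANC1 (0.0860) and the DBF4 gemcitabine response between lines (0.0704). With 2 replicates a group, the intervals of CDT1, ORC3 and ORC4 in PANC1 allow for differences of the size called in other genes.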
